A study of Mus musculus with 15 samples.

Results

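Regulatory T cells (Tregs) of untreated wild-type (WT) mice were compared between skin and the lymph nodes (LN) that drain it, and every expressed gene was tested. The comparison uses 6 of the 15 libraries of the series, 3 of skin Tregs and 3 of LN Tregs, chosen by their labels, and 13578 of the 24015 genes counted had enough reads to be tested. All mice were adult C57BL/6 animals whose Foxp3 locus drives Cre and a yellow fluorescent protein (Foxp3 cre-eyfp), so both groups carry that allele, and no floxed gene is named for either. The sort took CD45+CD3+CD4+YFP+ cells, and YFP reports Foxp3 expression. Back skin and ears, freed of fat, were shaken for 90 minutes with Liberase TL and DNase, whereas axillary nodes were homogenised with no digestion stated. Tissue and digestion therefore cannot be told apart in any difference below. The labels call the samples biological replicates and do not say whether animals were pooled.

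Tregs hold immune responses in check and depend on the transcription factor Foxp3. Those of lymph nodes include many resting cells that recirculate through blood and lymph. Those of skin are mostly activated and resident, lie close to hair follicles, and are known for roles in wound repair and hair growth beside suppression.

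The skin libraries held 22.9, 25.1 and 19.8 M counts and the LN libraries 24.6, 27.7 and 25.3 M. Levels are given as CPM, counts per M of the library size after TMM scaling, and differences as log2 of skin over LN with their standard error (SE) and n = 3 libraries per group. Calls were made with edgeR's quasi-likelihood test, at a p under 0.05 after adjustment over all genes tested. By that plain test 28.8% of the genes tested were higher in skin and 28.8% were lower, so that a plain call is common in this comparison. A second test therefore asked for a difference larger than 2-fold, and 12.7% of genes were higher and 9.67% lower by it. The median over all genes tested was 0.01 on the log2 scale. Counts of a gene group are read against these shares. In bulk libraries, fewer cells that express a gene and less of its RNA per cell cannot be told apart. The p-values measure the spread between samples, estimated over all 15 libraries of the series and not over these 6 alone. The others are skin Tregs of untreated Rora conditional knockout (cKO) mice, and of WT and Rora cKO mice treated with MC903. Skin libraries correlated with each other at 0.931 to 0.946 and LN libraries at 0.978 to 0.989 (Pearson r of log2 CPM), and the shared estimate does not separate the 2 groups.

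The sorted cells held the defining transcripts of Tregs in both tissues. Foxp3 was read at 148, 202 and 163 CPM in skin and 28.4, 16.2 and 41.8 CPM in LN. The groups did not overlap, as for 30.1% of all genes tested with skin above LN and 33.4% with skin below, 63.4% in all. The difference was 2.57 ± 0.26 (adjusted p = 6.69e-07). Ctla4, an inhibitory receptor of Tregs, was higher by 3.52 ± 0.15, and Il2ra, the interleukin 2 receptor chain CD25, by 0.88 ± 0.20 (adjusted p = 0.00145). The T cell genes Cd4 and Cd3e were lower in skin, by -0.66 ± 0.14 and -0.78 ± 0.13. None of these last 3 passed the 2-fold test.

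Transcripts of other cells were present at levels that differed by tissue. Of 17 keratinocyte genes tested, 12 were higher in skin and 1 was lower, and the sum over the list was 866, 605 and 445 CPM in skin against 33.9, 32.4 and 31.9 CPM in LN. That count fell to 6 without LN replicate 1, to 5 without LN replicate 2, to 7 with the 6 compared libraries fitted alone, and to 6 with LN replicate 3 and skin replicate 2 both left out. Sfn, which encodes stratifin, and Epcam, an adhesion protein, made up much of the sum, at 248, 306 and 217 CPM and 164, 126 and 143 CPM in skin. The basal keratin gene Krt5 was uneven, at 60.1, 0.177 and 5.71 CPM in skin. Of 11 fibroblast genes tested, 8 were higher in skin, with sums of 87.6, 54.8 and 74.0 CPM against 2.56, 2.03 and 13.8 CPM in LN. The 8 became 5 without LN replicate 1, LN replicate 2 or skin replicate 3, and 5 under a filter of 50 counts in 3 libraries. In LN, all 9 tested B cell genes were higher than in skin, and their sum was 243, 211 and 787 CPM in LN against 8.51, 13.4 and 9.26 CPM in skin. The B cell gene Ms4a1 had no read in any skin library, where a count of 0 allows up to 3 counts. LN replicate 3 stood above the other LN libraries for B cell genes and also for macrophage and dendritic genes, whose sum was 1008, 860.5 and 2829 CPM in LN and 712, 992 and 1565 CPM in skin. Genes of melanocytes, Schwann cells, muscle and fat summed to 28.7, 99.4 and 67.1 CPM in skin and 5.89, 6.12 and 6.78 CPM in LN. Immediate early and heat shock genes, which respond to tissue handling, were higher in skin for 23 of 25, with sums of 35253, 35454 and 26390.0 CPM in skin and 5804, 5668 and 5292 CPM in LN. The part of these transcripts and of the digestion in the differences below was not tested.

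**Figure D1:**
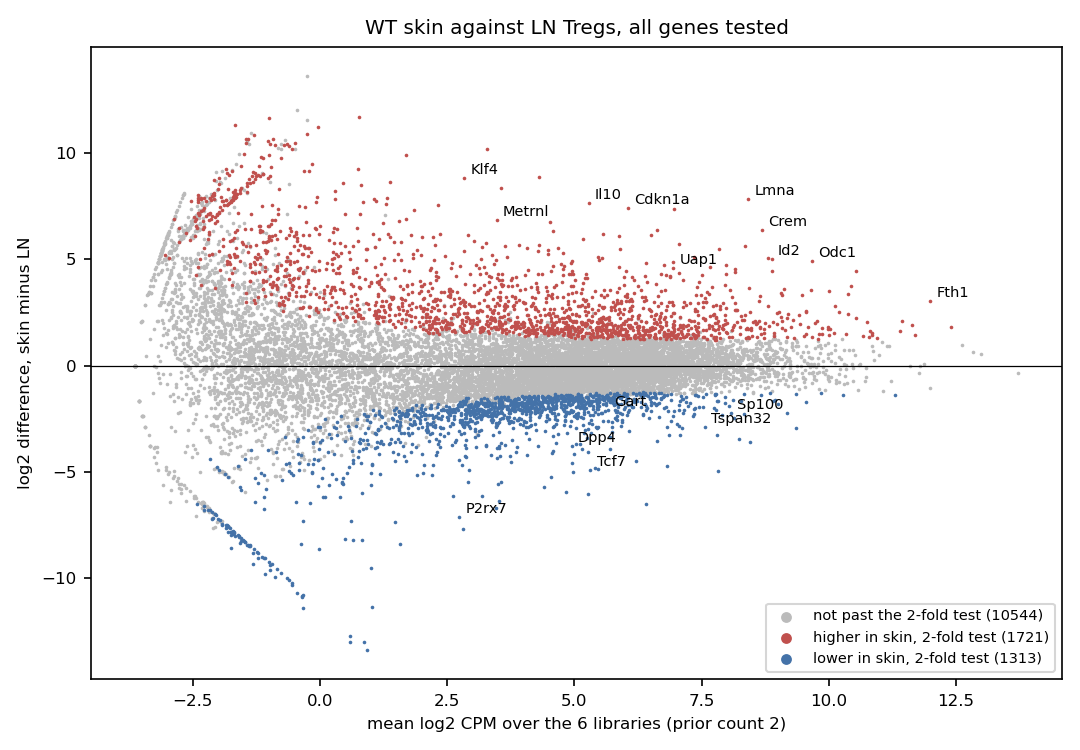
Mean level over the 6 libraries (log2 CPM, horizontal axis) against the log2 difference of skin minus LN (vertical axis) for each of the 13578 genes tested. Red points are the 1721 genes higher and blue points the 1313 genes lower in skin by the 2-fold test, and the labels mark genes described in the text, with Lmna, Crem, Odc1 and Id2 high on both axes.

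Of the called genes with a mean log2 CPM from 5 upwards whose groups did not overlap, Lmna had the highest log2 difference. It encodes lamin A and C, the proteins of the nuclear lamina that stiffen the nucleus. Its level was 7300.0, 6666 and 3066 CPM in skin and 18.3, 13.6 and 42.2 CPM in LN. Skin replicate 3 was the lowest of the skin libraries and LN replicate 3 the highest of the LN libraries, yet the groups lay far apart, and the difference was 7.84 ± 0.52 (adjusted p = 4.41e-08). Il10, the gene of a suppressive cytokine, followed at 7.63 ± 0.21, with 556, 556 and 545 CPM in skin and 1.81, 2.92 and 3.58 CPM in LN, and then Cdkn1a, which encodes the cell cycle inhibitor p21, at 7.42 ± 0.25. Dgat2, an enzyme of triglyceride synthesis, was higher by 5.93 ± 0.24, the small GTPase gene Gem by 6.12 ± 0.19 and Rgs2, a brake on G protein signalling, by 5.61 ± 0.21. Fos, higher by 7.37 ± 0.35, belongs to the genes that respond to tissue handling. The LN side of the same ranking held the survival gene Bcl2 (-6.05 ± 0.27), the GTPase gene Gimap4 (-4.95 ± 0.36) and the transcription factor gene Tcf7. It also held Folr4 (-4.69 ± 0.30), which encodes folate receptor 4, a surface marker of Tregs, and Slfn1, a Schlafen gene (-4.49 ± 0.31).

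Surface genes were read as 12 lists with 575 tested members out of 684 listed. By the plain test 196 were higher and 118 lower in skin, and by the 2-fold test 115 were higher and 63 lower. Of 53 adhesion molecules outside the integrins, 24 were higher and 11 lower, the lower side below its background of 28.8%. By the 2-fold test 19 were higher and 10 lower, against backgrounds of 12.7% and 9.67%, and the list's median was 1.17. The ligand genes Icam2 (-3.15 ± 0.27) and Pecam1 (-2.36 ± 0.21) and the receptor gene Cd96 (-3.26 ± 0.19) were lower in skin. Pecam1 is also in the endothelial list, of whose 9 tested members 2 were higher and 1 lower in skin. At 133, 155 and 107 CPM in LN it made up nearly all of that list's LN sums of 133, 155 and 108 CPM. The part of endothelial transcript in its difference was not tested. On the skin side stood Cd44, the hyaluronan receptor of activated lymphocytes, at 834, 732 and 835 CPM against 94.5, 93.4 and 119 CPM in LN (2.97 ± 0.20). Emb, which encodes embigin, a chaperone of monocarboxylate transporters, reached 2096, 2247 and 2422 CPM in skin and 252, 251 and 183 CPM in LN (3.30 ± 0.18). Ninj1, whose product takes part in membrane rupture and adhesion, was higher by 2.78 ± 0.13 and Epcam by 3.30 ± 0.17. Epcam is also in the keratinocyte list, and the part of keratinocyte transcript in its difference was not tested. Cd47, the signal that spares cells from phagocytosis, did not pass the test (-0.24, 95% interval -0.53 to 0.05).

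G protein-coupled receptors outside the chemokine family held members on both sides, as did all genes tested. Of 62 tested, 22 (35.5%) were higher and 17 (27.4%) lower, against backgrounds of 28.8% each. By the 2-fold test 15 (24.2%) were higher and 10 (16.1%) lower, against 12.7% and 9.67%. The 10 became 6 under DESeq2 and 6 without LN replicate 2. Ltb4r1, the high-affinity receptor for the chemoattractant lipid leukotriene B4, was read at 64.5, 69.1 and 53.8 CPM in skin and 1.17, 2.70 and 2.10 CPM in LN (4.96 ± 0.30, adjusted p = 1.98e-09). Tbxa2r, the receptor of another arachidonic acid product, thromboxane A2, went the other way, at 2.65, 3.14 and 1.78 CPM in skin and 61.4, 58.3 and 34.1 CPM in LN (-4.34 ± 0.46). The lysophospholipid receptor genes differed too: Gpr55, for lysophosphatidylinositol, was higher at 113, 43.7 and 87.7 CPM against 5.33, 6.25 and 7.19 CPM (3.70 ± 0.28). Gpr34, for lysophosphatidylserine, was lower at 0.473, 1.86 and 2.10 CPM against 46.7, 42.6 and 22.8 CPM (-4.66 ± 0.96). Gpr174, also a lysophosphatidylserine receptor, did not pass the test (-0.39, 95% interval -0.79 to 0.01). P2ry14, which senses UDP-glucose, was higher by 2.68 ± 0.30 and the orphan receptor gene Gpr160 by 3.24 ± 0.32. Gpr83, long used as a Treg marker, was lower (log2 difference -4.16 ± 0.40) and Gpr18 as well (-2.79 ± 0.27).

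Amino acid transporters were higher in skin for 14 (40%) and lower for 7 (20%) of 35 tested, with a median of 0.81. The shares over all genes tested were 28.8% each way. The 7 became 3 without LN replicate 3, with skin replicate 2 kept or left out. Slc3a2, the heavy chain shared by the CD98 transporters, was read at 1103, 1278 and 1039 CPM in skin and 137, 147 and 128 CPM in LN (3.05 ± 0.14, adjusted p = 5.12e-11). Its partner Slc7a5, which carries leucine and other large neutral amino acids, was higher by 1.71 ± 0.19, and the glutamine and alanine carrier gene Slc38a2 by 2.83 ± 0.17. Slc15a3, a lysosomal transporter of histidine and small peptides, was higher by 4.80 ± 0.32, though its skin libraries ranged widely at 33.2, 55.8 and 85.3 CPM. Among carriers of other nutrients 19 of 51 (37.3%) were higher and 10 (19.6%) lower. The lactate exporter gene Slc16a3 was read at 171, 79.9 and 91.7 CPM in skin and 8.74, 8.21 and 13.7 CPM in LN (3.48 ± 0.40). Mfsd2a, which carries lysophospholipids with omega-3 fatty acids, was higher by 2.53 ± 0.27, and the inositol carrier gene Slc5a3 by 2.38 ± 0.29. A pair of related vitamin carriers moved in opposite directions: the thiamine transporter gene Slc19a2 was higher by 2.29 ± 0.22, at 15.7, 18.5 and 14.2 CPM in skin against 2.91, 2.76 and 4.21 CPM in LN. The reduced folate carrier gene Slc19a1 was lower (log2 difference -1.80 ± 0.20), at 11.5, 18.0 and 13.9 CPM against 44.4, 49.3 and 57.1 CPM. The choline transporter-like gene Slc44a2 was lower as well (-1.97 ± 0.21).

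Metal ion transporters and ferritin genes were higher for 18 (50%) and lower for 7 (19.4%) of 36. The shares over all genes tested were 28.8% each way. Fth1, the heavy chain of ferritin that stores iron, was read at 10780.0, 13040.0 and 11281 CPM in skin and 1532, 1566 and 1215 CPM in LN (3.02 ± 0.13). Near-identical pseudogenes could take some of its reads, so its level is uncertain. The transferrin receptor gene Tfrc, which brings iron in, was higher too, by 1.76 ± 0.24, as were Hmox1, which frees iron from haem (2.89 ± 0.28), and Slc25a28, which carries iron into mitochondria (2.03 ± 0.31). The zinc carrier genes Slc39a10 (-1.65 ± 0.30) and Slc30a6 (-1.45 ± 0.21) were lower.

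Of 65 ion channel and pump genes tested, 18 were higher and 13 lower, both shares below the background of 28.8%. P2rx7, a cation channel opened by extracellular ATP, had the difference of largest size in this list, at 0.567, 0.973 and 0.162 CPM in skin and 77.6, 82.6 and 84.3 CPM in LN (-7.12 ± 0.79, adjusted p = 5.02e-06). Its LN libraries lay close together and far above all skin libraries. The plasma membrane calcium pump genes Atp2b4 and Atp2b1 were higher by 3.88 ± 0.27 and 2.39 ± 0.19. Orai1, the pore of store-operated calcium entry, was read at 351, 430.2 and 237 CPM in skin and 63.1, 31.2 and 33.8 CPM in LN (2.99 ± 0.45), and the groups did not overlap. Itpr2, the calcium release channel of the endoplasmic reticulum, did not pass (0.03, 95% interval -0.26 to 0.31). Hvcn1, a voltage-gated proton channel, was read at 4.96, 3.89 and 2.91 CPM in skin and 72.2, 77.2 and 65.1 CPM in LN (-4.18 ± 0.29). Hvcn1 is also abundant in B cells, whose genes were higher in the LN libraries, and the part of B cell transcript in this difference was not tested. The sodium pump subunit gene Atp1b1 was lower (log2 difference -4.67 ± 0.72).

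Guidance receptors and their ligands were higher for 12 (25.5%) and lower for 7 (14.9%) of 47. The 12 became 7 without LN replicate 1 or 2. Receptor kinases, phosphatases and death-domain receptors were higher for 17 (30.4%) and lower for 6 (10.7%) of 56. Paired and inhibitory receptors of the immunoglobulin family were higher for 14 (26.9%) and lower for 12 (23.1%) of 52. The shares over all genes tested were 28.8% each way. Nrp1, the semaphorin co-receptor used to mark thymus-derived Tregs, was lower in skin at 47.2, 55.2 and 44.7 CPM against 277, 293 and 315 CPM (-2.59 ± 0.17, adjusted p = 5e-09), while Sema4d did not pass (-0.19, 95% interval -0.59 to 0.21). Rgmb, a co-receptor of bone morphogenetic proteins, was higher by 3.58 ± 0.37 and the semaphorin receptor gene Plxnd1 by 2.98 ± 0.53. Among growth factor receptors, Igf1r and Igf2r, which bind insulin-like growth factors, were lower (log2 difference -1.63 ± 0.29 and -2.50 ± 0.27), and Notch1 was higher by 1.43 ± 0.21. Kit, the stem cell factor receptor, was higher by 2.89 ± 0.40, at 19.4, 8.22 and 25.3 CPM against 1.85, 2.16 and 3.11 CPM, and Ddr1, a collagen receptor, by 1.86 ± 0.29. The lectin genes Lgals1 and Lgals3, which encode galectins 1 and 3, were higher by 2.58 ± 0.20 and 4.43 ± 0.31, and Lgals9 was lower (log2 difference -1.38 ± 0.16). Of the inhibitory receptor genes, Havcr2, which encodes TIM-3, was higher by 4.26 ± 0.32 and Tigit by 2.33 ± 0.20, whereas Cd160 (-5.03 ± 0.78) and Cd200 (-2.88 ± 0.25) were lower. Cd5 did not pass the test (0.20, 95% interval -0.03 to 0.42). The tetraspanin gene Tspan32 was lower at 68.8, 70.3 and 71.0 CPM against 549.8, 567 and 428 CPM (-2.88 ± 0.15), with skin libraries that nearly coincided.

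Genes that build surface glycans had a median of -0.02, with 20 of 63 (31.7%) higher and 16 (25.4%) lower. Both shares were near the 28.8% of all genes tested in each direction. Genes that start O-linked glycans differed in opposite directions, with Galnt2 higher by 3.04 ± 0.16 and Galnt10 lower (log2 difference -2.0 ± 0.33). C1galt1 and Gcnt1, which extend and branch such glycans, were higher by 1.75 ± 0.34 and 2.33 ± 0.25. On the LN side were Gne, which makes sialic acid (-2.73 ± 0.31), St8sia6, which adds it (-3.78 ± 0.32), and B4galnt1, which makes gangliosides (-2.47 ± 0.15).

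**Figure D2:**
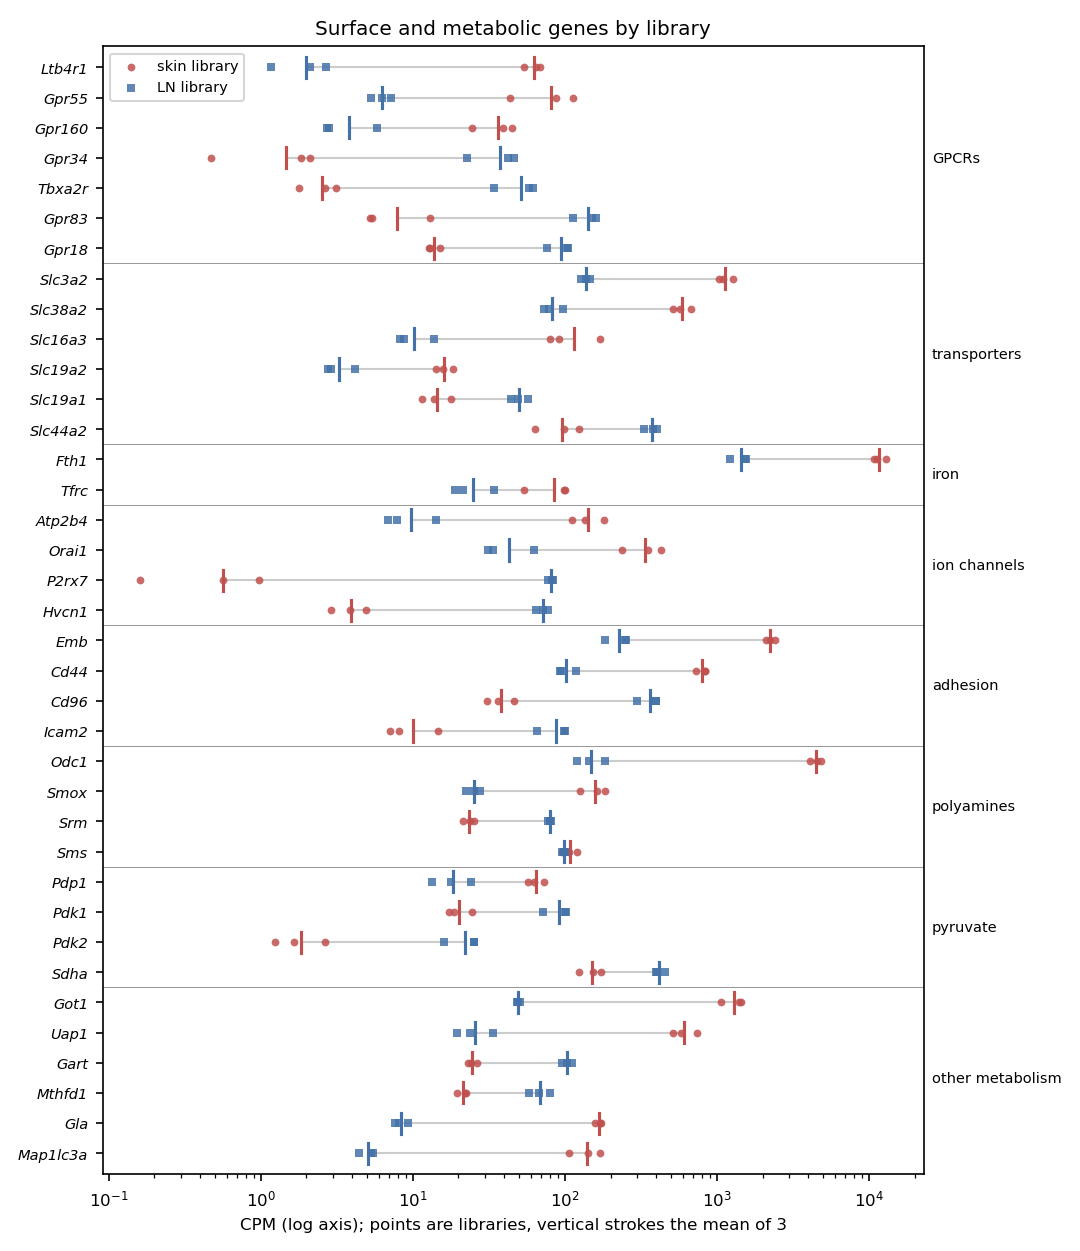
CPM on a log axis for surface and metabolic genes, with 1 red circle for each skin library, 1 blue square for each LN library and a vertical stroke at each group's mean of 3. Sms, which did not pass the test, has skin and LN libraries side by side, and for the other genes shown the groups do not overlap.

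Metabolic genes were read as 10 lists, with 513 tested of 562 listed. By the plain test 146 (28.5%) were higher and 157 (30.6%) lower in skin, near the 28.8% of all genes tested in each direction. The surface theme had 34.1% higher and 20.5% lower. The difference between the themes was not tested. By the 2-fold test 68 (13.3%) were higher and 50 (9.75%) lower, near the 12.7% and 9.67% of all genes tested.

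Nucleotide synthesis was the metabolic list with the most members on the LN side. Of 60 purine and pyrimidine genes tested, 33 were lower and 8 higher, 13 and 2 by more than 2-fold, and the median was -0.67. Gart, which catalyses 3 steps of purine synthesis, was read at 23.1, 26.3 and 24.1 CPM in skin and 95.6, 103 and 112 CPM in LN (-2.08 ± 0.17, adjusted p = 6.35e-08). Pfas, another enzyme of that pathway, was lower (log2 difference -2.0 ± 0.32). The other enzymes that lead to inosine monophosphate were picked out after their values were seen, and each was lower by the plain test: Ppat (-1.09 ± 0.16), Paics (-0.85 ± 0.12), Adsl (-1.70 ± 0.12) and Atic (-1.54 ± 0.23). So were Cad (-1.40 ± 0.35) and Dhodh (-1.75 ± 0.27), which act early in pyrimidine synthesis. On the skin side stood Pnp, a purine salvage enzyme, at 151, 204 and 159 CPM against 50.2, 54.3 and 51.4 CPM (1.72 ± 0.13). Impdh1 and Impdh2, which lead on to guanine nucleotides and were also picked out afterwards, were higher by 0.89 ± 0.19 and 0.93 ± 0.12. Adss did not pass the test (0.19, 95% interval -0.04 to 0.42). Nudt1, which clears oxidised nucleotides, was lower (log2 difference -2.32 ± 0.34) and the mitochondrial kinase gene Dguok as well (-2.19 ± 0.25).

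Folate and methionine metabolism leaned the same way, with 15 of 31 genes lower and 5 higher and a median of -0.41. Mthfd1, the cytosolic enzyme that supplies purine synthesis, was lower at 22.3, 19.6 and 22.1 CPM against 58.0, 68.1 and 80.5 CPM (-1.69 ± 0.21). The mitochondrial gene Mthfd2 did not pass (-0.17, 95% interval -0.46 to 0.11).

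Conversion of pyruvate to acetyl-CoA by pyruvate dehydrogenase in mitochondria is held back by pyruvate dehydrogenase kinases and released by phosphatases. Pdk1 was lower in skin at 24.5, 18.7 and 17.2 CPM against 102, 99.7 and 72.3 CPM (-2.18 ± 0.23), and Pdk2 at 2.65, 1.24 and 1.67 CPM against 25.2, 25.2 and 16.1 CPM (-3.58 ± 0.49). The phosphatase gene Pdp1 was higher at 73.4, 57.6 and 62.3 CPM against 18.0, 24.1 and 13.4 CPM (1.80 ± 0.19). Pdk4, picked out after its values were seen, was higher by 6.41 ± 2.12 at a low level, 1.28, 1.41 and 1.35 CPM in skin. In the tricarboxylic acid cycle list 17 of 38 were lower and 7 higher, with a median of -0.22, and the 95% interval of 11 members lay within 0.5 of 0, as it did for 5.29% of all genes tested. The succinate genes Sdha (-1.47 ± 0.13) and Suclg1 (-1.43 ± 0.19) were lower by more than 2-fold, and Idh3a did not pass (-0.13, 95% interval -0.38 to 0.11).

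Polyamines, small cations needed for growth and for translation, are made from ornithine by Odc1. Its transcript was read at 4873, 4128 and 4545 CPM in skin and 144, 121 and 183 CPM in LN, with groups far apart (4.92 ± 0.18, adjusted p = 7.75e-12). The later steps did not follow: the spermidine synthase gene Srm was lower at 24.0, 25.2 and 21.3 CPM against 77.8, 80.1 and 81.4 CPM (-1.76 ± 0.19). The spermine synthase gene Sms did not pass, at 0.13 with a 95% interval of -0.11 to 0.38. Smox, which oxidises spermine back to spermidine, was higher at 164, 126 and 184 CPM against 22.6, 27.8 and 25.1 CPM (2.65 ± 0.16). Got1, the cytosolic aspartate aminotransferase, reached 1434, 1072 and 1400.3 CPM in skin and 49.3, 48.6 and 50.5 CPM in LN (4.72 ± 0.17), and Glul, which makes glutamine, was higher by 2.81 ± 0.16. Aldh18a1, which starts proline synthesis, was lower (log2 difference -1.62 ± 0.24). Of the 49 genes of amino acid and polyamine metabolism, 21 were higher and 11 lower.

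Uap1 makes UDP-N-acetylglucosamine, the sugar donor of glycan chains and hyaluronan. It was read at 583, 514 and 742 CPM in skin and 23.7, 19.5 and 33.9 CPM in LN (4.58 ± 0.23, adjusted p = 2.54e-10). Its list of pentose, hexosamine and glycogen enzymes otherwise leaned to LN, with 17 of 49 lower and 7 higher, the 7 becoming 11 by limma-voom. Prps2, which makes the ribose donor of nucleotides, was lower (log2 difference -1.79 ± 0.17), and the glycogen genes Gyg (-1.33 ± 0.14) and Gaa (-1.86 ± 0.31) were lower too. Taldo1 did not pass (-0.24, 95% interval -0.51 to 0.02).

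In the sphingolipid list 14 of 43 (32.6%) were higher and 9 (20.9%) lower, against 28.8% of all genes tested each way. Gla, the lysosomal alpha-galactosidase that is deficient in Fabry disease, was read at 169.7, 173 and 158 CPM in skin and 7.67, 9.29 and 8.10 CPM in LN (4.32 ± 0.21). Galc, the galactosylceramidase deficient in Krabbe disease, was higher by 3.33 ± 0.28, Gm2a, a ganglioside activator, by 1.75 ± 0.17 and the sphingomyelin synthase gene Sgms1 by 1.98 ± 0.18. Among eicosanoid and phospholipase genes 13 of 58 (22.4%) were higher and 14 (24.1%) lower, both below that background. The 13 became 8 without LN replicate 1 or 2, and the 14 became 9 without skin replicate 2 or LN replicate 3. Plcd1, a phospholipase C, was higher by 3.0 ± 0.24, and Ephx1, an epoxide hydrolase, was lower (log2 difference -1.94 ± 0.15), as was Ptgr2, which inactivates prostaglandins (-2.77 ± 0.33). Dgka, whose kinase ends diacylglycerol signals, was lower (log2 difference -1.38 ± 0.15). Retinoid and steroid genes were higher for 11 and lower for 6 of 43, including Rdh10, which makes retinal (2.41 ± 0.28), and the cholesterol carrier gene Stard4 (1.58 ± 0.15).

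Lysosome and autophagy genes were higher for 37 of 77 and lower for 16, with a median of 0.50. The autophagosome gene Map1lc3a was read at 143, 171 and 107 CPM in skin and 5.50, 5.30 and 4.46 CPM in LN (4.78 ± 0.18). Ulk1, the kinase that starts autophagy, was higher by 3.80 ± 0.26, the cargo receptor gene Optn by 2.62 ± 0.38 and the protease gene Ctsl by 3.72 ± 0.23, whereas Becn1 did not pass (0.24, 95% interval -0.01 to 0.49). Of 65 tested genes of nutrient sensing and insulin signalling, 23 (35.4%) were higher and 19 (29.2%) lower. The shares over all genes tested were 28.8% each way. Some related members differed in opposite directions. Sgk1 was higher by 3.11 ± 0.21 and Sgk3 lower (log2 difference -3.24 ± 0.43). Of the AMP-activated kinase subunits, Prkab2 was higher by 3.20 ± 0.31 and Prkag2 lower (log2 difference -1.81 ± 0.18). Irs2, the insulin receptor substrate, was higher at 49.8, 50.3 and 31.3 CPM against 2.73, 1.36 and 2.38 CPM (4.34 ± 0.30). The phosphoinositide kinase gene Pik3cd (-2.42 ± 0.25) and its inhibitor gene Pik3ip1 (-3.39 ± 0.28) were both lower. Stk11, the kinase LKB1, was higher by 3.75 ± 0.42, with skin replicate 2 well above the other libraries at 69.5, 227 and 77.0 CPM in skin.

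**Figure D3:**
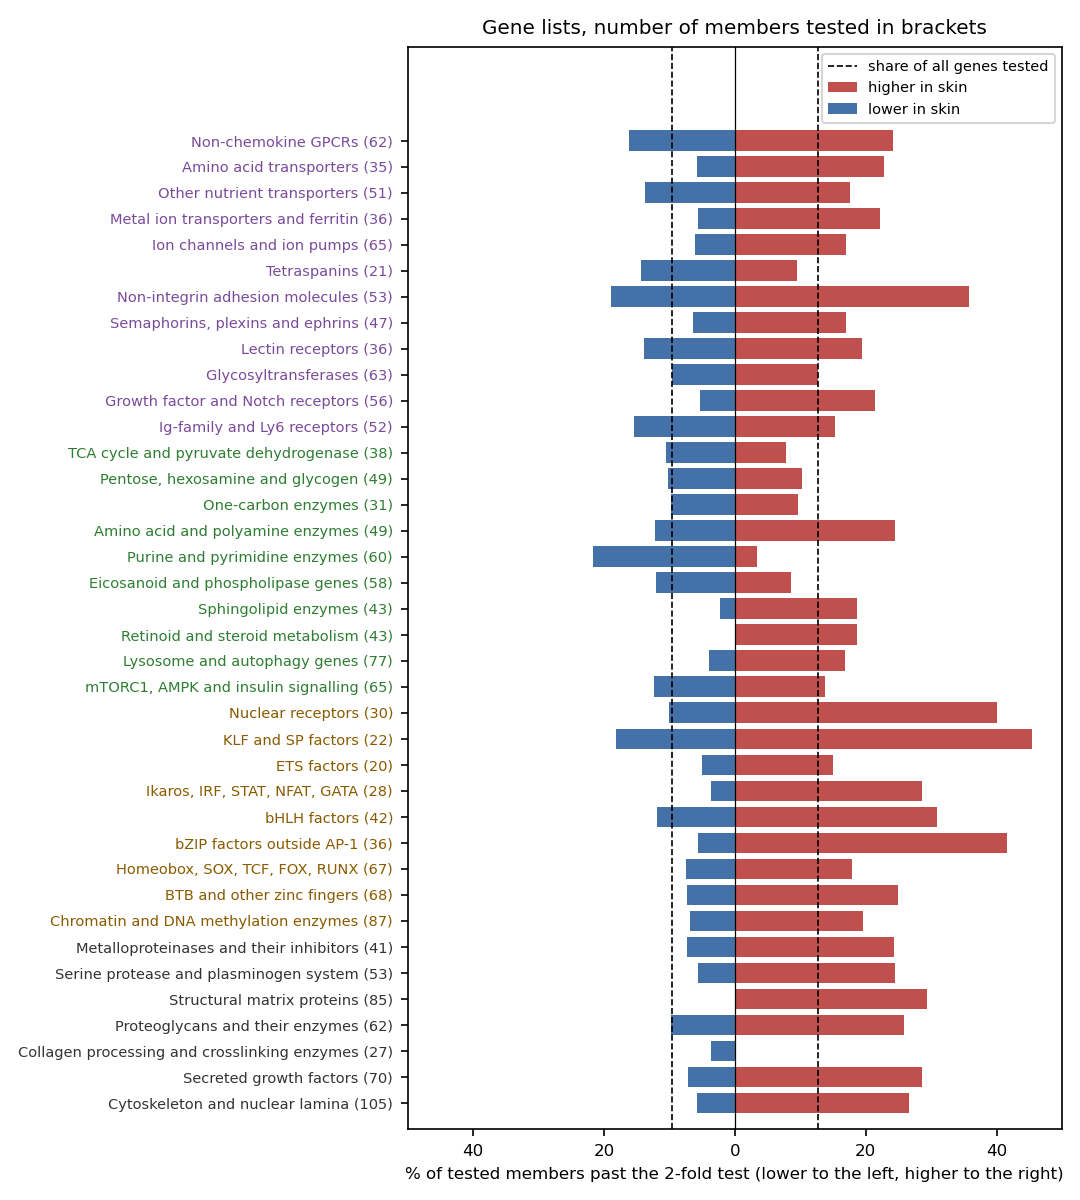
Share of the tested members of each list that were lower (blue, to the left) or higher (red, to the right) in skin by the 2-fold test. The dashed lines mark 9.67% and 12.7%, the shares of all 13578 genes tested, and label colours separate surface (purple), metabolic (green), transcription factor (brown) and matrix (black) lists.

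Transcription factor and chromatin genes were read as 9 lists, with 400 tested of 495 listed. The plain test called 187 higher and 74 lower, and the 2-fold test 107 higher and 32 lower. Nuclear receptors, which respond to lipids, hormones and haem, were higher for 17 and lower for 4 of 30, with a median of 1.42. Rora, the receptor the series is about, was higher by 4.55 ± 0.17. Nr1d1, the REV-ERB repressor that binds the same DNA element as ROR-alpha, was read at 147, 106 and 111 CPM in skin and 6.18, 6.72 and 5.93 CPM in LN (4.27 ± 0.33). Nr4a2, an orphan receptor induced by antigen signals, was read at 209, 162 and 156 CPM against 3.12, 3.74 and 6.50 CPM (5.30 ± 0.28). Nr4a1 was higher by 3.59 ± 0.23, and it is also in the list of genes that respond to handling. Nr3c1, the glucocorticoid receptor, was picked out after its values were seen, at 858, 879 and 807 CPM in skin against 97.9, 90.4 and 81.7 CPM in LN (3.24 ± 0.14). Rarg, a retinoic acid receptor, did not pass (0.05, 95% interval -0.36 to 0.46).

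The list of KLF and SP factors holds the KLF and SP zinc finger factors and, by name only, the separate SP100 family. By the 2-fold test 10 of 22 were higher and 4 lower. The 4 lower were Klf3 and, of the SP100 family, Sp100, Sp110 and Sp140. Klf4, known for restraining proliferation and for its role in the skin barrier, was read at 134, 235 and 90.0 CPM in skin and 0.107, 0.285 and 0.596 CPM in LN (8.81 ± 0.55, adjusted p = 1.18e-08). Klf6 was higher at 1834, 1624 and 1779 CPM against 174, 181 and 144 CPM (3.39 ± 0.21), and Klf9 and Klf11 were higher by 3.58 ± 0.44 and 3.17 ± 0.40. Klf6 is also in the list that responds to handling, and Klf4 is abundant in keratinocytes, whose genes were higher in skin. The part of either in these differences was not tested. The SP100 family, chromatin readers of nuclear bodies that interferons induce, lay on the LN side: Sp100 was read at 137, 96.4 and 146 CPM in skin against 629.5, 639 and 495 CPM (-2.22 ± 0.19). Sp110 was lower (log2 difference -2.88 ± 0.29) and Sp140 as well (-1.60 ± 0.21). Klf3 was lower (log2 difference -1.30 ± 0.16) and Sp3 did not pass (0.19, 95% interval -0.10 to 0.48).

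Among basic helix-loop-helix genes, of which 17 of 42 were higher and 9 lower, the inhibitors of E proteins differed in opposite directions. Id2, which supports effector and tissue lymphocytes, was read at 2553, 2947 and 2564 CPM in skin and 77.9, 80.7 and 89.0 CPM in LN (5.03 ± 0.18, adjusted p = 7.56e-12). Id3, which supports naive cells, was lower at 80.0, 82.9 and 91.0 CPM against 426, 359 and 228 CPM (-2.0 ± 0.21). The MYC network was divided as well. Myc was lower (log2 difference -1.44 ± 0.19), at 98.6, 81.4 and 71.2 CPM against 229, 228 and 225 CPM, and its antagonists Mxd1 and Mxi1 were higher by 4.26 ± 0.16 and 4.90 ± 0.51. Arnt2, a dimer partner of PAS factors, was higher by 3.80 ± 0.38. Arnt narrowly did not pass (0.34, unadjusted 95% interval 0.04 to 0.64, adjusted p = 0.0502).

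The bZIP factors outside AP-1 had the most one-sided list of this theme by the plain test, with 27 of 36 higher and 2 lower and a median of 1.27. Crem encodes the cAMP-responsive modulator, whose short form ICER represses cAMP-driven genes. It was read at 3615, 3854 and 3805 CPM in skin and 38.8, 48.1 and 48.4 CPM in LN, with libraries of each group close together (6.38 ± 0.17, adjusted p = 4.67e-13). Counts per gene do not show which form was made. Nfil3, a repressor linked to the circadian clock and to lymphocyte fate, was higher at 618, 472 and 378 CPM against 9.66, 5.07 and 7.12 CPM (6.07 ± 0.49). Hlf, a circadian activator that binds the same element as Nfil3, was higher at 78.4, 51.8 and 64.0 CPM against 1.70, 1.74 and 0.596 CPM (5.59 ± 0.51). Bach2, which holds T cells in a resting state, was lower at 2.74, 4.91 and 1.67 CPM against 26.7, 23.4 and 27.8 CPM (-3.06 ± 0.47).

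The letters of the cAMP response element, TGACGTCA, which reads the same on both strands and is bound by CREM and CREB proteins, were searched in the 250 bases before the start of each gene that the RefSeq promoter table (build GRCm38.p6, not the mm9 of the alignment) holds. They were found in 4.58% of 1331 genes higher by the 2-fold test, 1.59% of 1068 lower genes and 2.97% of 10827 genes tested. Of the genes taken by the naming rule given below, 112 were higher by the 2-fold test and had a promoter. Among these, 2 held the letters, Areg and Hlf, a lower share than among all genes tested. Areg encodes amphiregulin, a growth factor of tissue repair, and it was read at 384, 518 and 334 CPM in skin and 5.18, 7.04 and 4.58 CPM in LN (6.20 ± 0.27). The Areg window is chr5:91139349-91139598 on the plus strand, with 53 bases between the match and the start, and the Hlf window is chr11:90390918-90391167 on the minus strand, with 1 base between them. Both are printed 5′ to 3′ with the matched letters in capitals.
Areg: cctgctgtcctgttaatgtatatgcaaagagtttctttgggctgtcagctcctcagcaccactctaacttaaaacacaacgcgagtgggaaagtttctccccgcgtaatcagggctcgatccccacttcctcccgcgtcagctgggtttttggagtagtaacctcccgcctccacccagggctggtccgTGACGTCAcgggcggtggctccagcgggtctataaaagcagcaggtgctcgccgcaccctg
Hlf: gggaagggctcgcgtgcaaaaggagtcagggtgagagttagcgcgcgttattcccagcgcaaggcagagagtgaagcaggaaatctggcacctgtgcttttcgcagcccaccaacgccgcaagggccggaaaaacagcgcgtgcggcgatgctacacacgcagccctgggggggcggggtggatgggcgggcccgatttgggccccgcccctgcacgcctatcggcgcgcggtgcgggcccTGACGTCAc
The letters of the interferon-stimulated response element, TTTC and TTTC with any 2 bases between them, searched on both strands, lay on the other side, in 5.24% of lower, 2.63% of higher and 3.30% of all genes tested. Of 89 genes with a promoter that the same rule takes and that were lower by the 2-fold test, Nsg2, Dpp4, Gpr18 and Lgals9 held them. Dpp4, whose window is chr2:62412232-62412481 on the minus strand with 42 bases after the match, is shown because its protease, CD26, is described below.
Dpp4: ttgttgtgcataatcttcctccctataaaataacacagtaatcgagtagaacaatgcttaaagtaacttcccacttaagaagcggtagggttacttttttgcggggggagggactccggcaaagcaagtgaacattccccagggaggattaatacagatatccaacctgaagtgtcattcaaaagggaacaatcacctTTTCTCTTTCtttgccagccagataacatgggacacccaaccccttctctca
The GC box GGGCGG, which SP and KLF proteins bind, was in 72.0% of higher, 53.1% of lower and 62.1% of all genes tested. The AP-1 letters TGANTCA were in 7.74%, 6.09% and 5.71%, and the ETS letters CCGGAAGT in 3.08%, 6.84% and 6.47%. The element NTAGGTCA of ROR and REV-ERB proteins was in 1.65%, 1.97% and 1.98%. These shares describe letters in a window and are not tests of binding.

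The remaining factor lists, other than the ETS factors, lay above the background of 28.8% on the higher side and below it on the lower side. Homeobox, SOX, TCF, FOX and RUNX genes were higher for 29 and lower for 10 of 67. Ikaros, IRF, STAT, NFAT and GATA genes were higher for 14 and lower for 6 of 28, and BTB, PRDM and other zinc finger regulators for 33 and 11 of 68. The 10 became 6 without LN replicate 3 and skin replicate 2. Tcf7 and Lef1, factors of resting T cells, were lower at 8.18, 9.68 and 4.42 CPM against 250.2, 243 and 183 CPM (-4.92 ± 0.38) and by -3.56 ± 0.18. Tgif1, a repressor of transforming growth factor beta signals, was higher at 808, 1057 and 928 CPM against 68.2, 74.1 and 61.2 CPM (3.78 ± 0.14). Hopx, a homeodomain protein without DNA binding that is known from induced Tregs, was higher by 2.81 ± 0.17, and Runx2 by 2.93 ± 0.25. Cbfb, the shared partner of RUNX proteins, did not pass (0.35, unadjusted 95% interval 0.02 to 0.68, adjusted p = 0.063). Stat3 was higher at 1332, 1024 and 1401 CPM against 271, 267 and 266 CPM (2.23 ± 0.14), with LN libraries that nearly coincided. Ikzf3 (1.91 ± 0.20) and Nfat5 (2.03 ± 0.24), the factor of osmotic stress, were higher, and Nfatc3 did not pass (0.29, 95% interval -0.01 to 0.58). Gata1, the erythroid and mast cell factor, was lower (log2 difference -3.86 ± 0.77). ETS factors had a median of 0.06, with 6 of 20 higher and 3 lower, and Ets2 was higher by 2.21 ± 0.15.

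Chromatin and DNA methylation enzymes were higher for 33 and lower for 24 of 87, close to the background of 28.8% on the lower side. Kdm6b, the demethylase that removes the repressive mark H3K27me3, was read at 395, 656 and 479.8 CPM in skin and 25.1, 24.7 and 34.4 CPM in LN (4.18 ± 0.21, adjusted p = 1.79e-10). Kdm2b was higher by 3.01 ± 0.21, the deacetylase gene Sirt1 by 3.25 ± 0.32 and Mbd2, which reads methylated DNA, by 2.50 ± 0.33. The acetyltransferase gene Kat2a (-1.96 ± 0.27), the deacetylase gene Hdac7 (-1.83 ± 0.24) and Sirt5 (-2.89 ± 0.60) were lower. Smarca2, an ATPase of the SWI/SNF complex, did not pass, at 73.8, 70.6 and 81.0 CPM against 77.7, 63.6 and 84.6 CPM, with a 95% interval of -0.28 to 0.27.

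**Figure D4:**
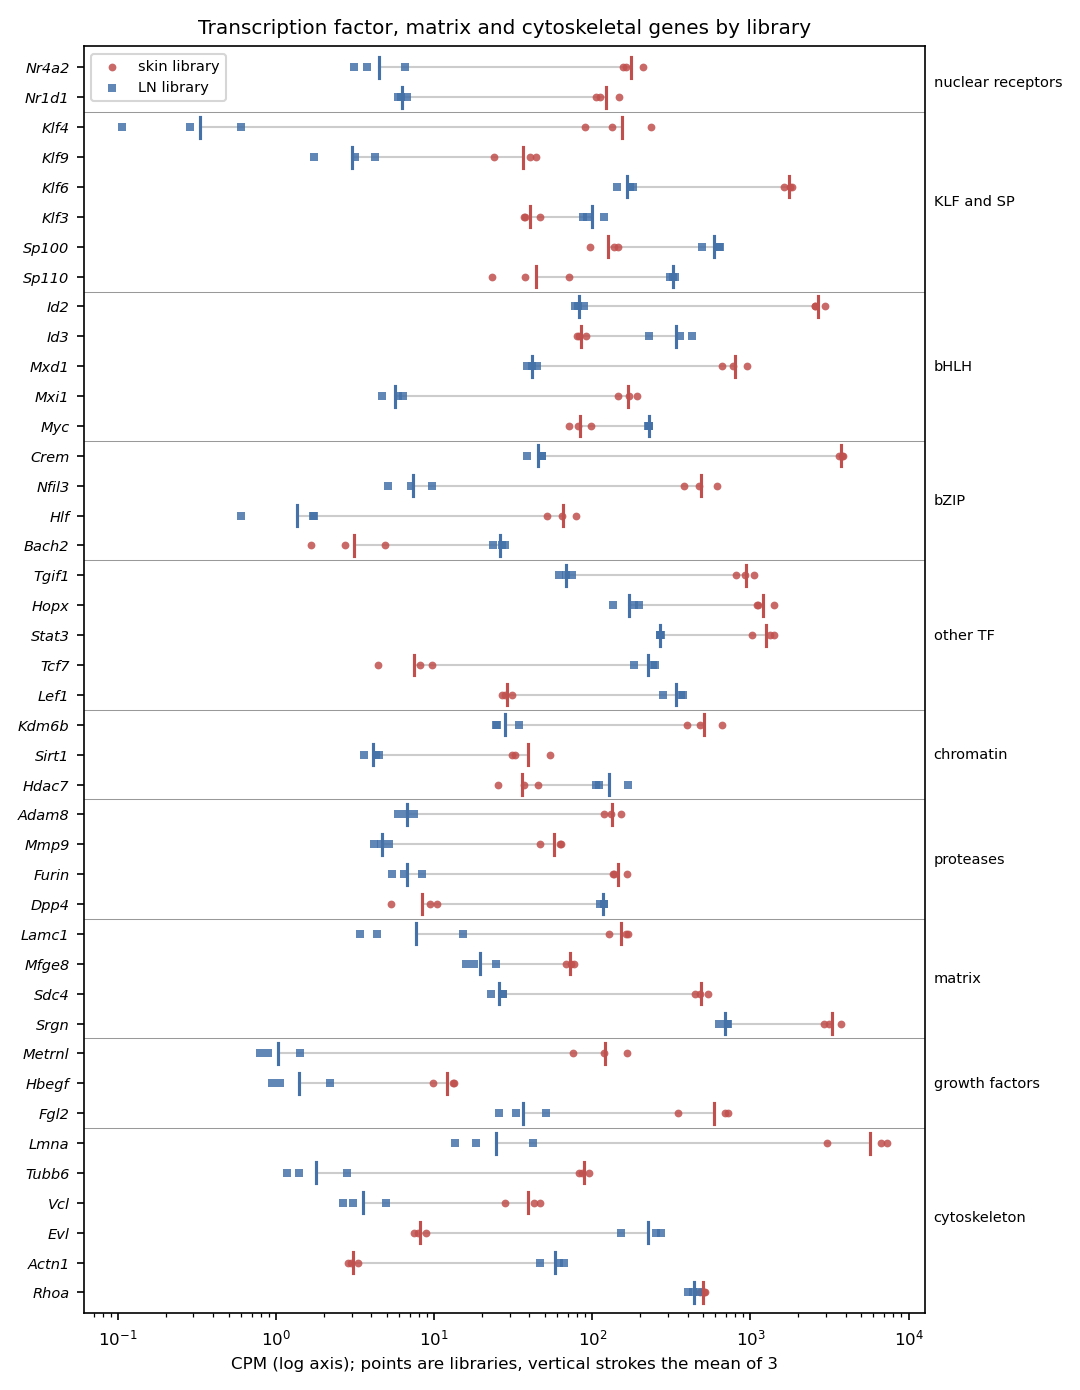
CPM on a log axis for transcription factor, chromatin, protease, matrix, growth factor and cytoskeletal genes, drawn as 1 red circle for each skin library and 1 blue square for each LN library, with a vertical stroke at each group's mean of 3. Id2 and Id3 lie in opposite directions, as do Mxd1 and Myc, and Rhoa, which did not pass the test, has nearly the same level in both tissues.

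Matrix, protease, growth factor and cytoskeletal genes were read as 7 lists, with 443 tested of 527 listed. Of these 177 were higher and 52 lower by the plain test, and 112 and 24 by the 2-fold test. Structural matrix genes had the highest median of all the lists of the 4 themes, 3.17, or 2.55 with genes that had no read in 1 tissue set at their bound. Of 85 tested, 39 were higher and 3 lower, and 23 were higher without LN replicate 1 and also without LN replicate 2. In 17 of the 85 the LN libraries held no read, and in 1 the WT skin libraries held none. The 17 passed the filter on low counts through skin groups alone, so the filter fixed their direction. The list's median includes them, and so does its count of higher members where they were called. Most of the higher members were scarce in skin: Col4a1, a basement membrane collagen chain picked out after its values were seen, was at 1.70, 0.619 and 6.14 CPM in skin and at 0 in LN. Sparc, a matrix protein of fibroblasts and endothelium picked out likewise, was at 35.6, 22.0 and 76.8 CPM in skin and 0, 0 and 0.533 CPM in LN. These values stand beside the fibroblast sums of 87.6, 54.8 and 74.0 CPM in skin and 2.56, 2.03 and 13.8 CPM in LN, and the part of fibroblast transcript in them was not tested. Lamc1 and Mfge8 had enough reads to be named by the rule. Lamc1, the gamma 1 chain of laminins, was read at 168, 162 and 128 CPM in skin and 4.37, 3.39 and 15.3 CPM in LN (4.31 ± 0.47, adjusted p = 4.54e-06). LN replicate 3 was the highest of its group, and the groups did not overlap. Mfge8, a secreted protein that bridges dying cells to phagocytes, was higher at 76.6, 73.0 and 68.4 CPM against 15.9, 17.9 and 24.6 CPM (1.90 ± 0.16).

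**Figure D5:**
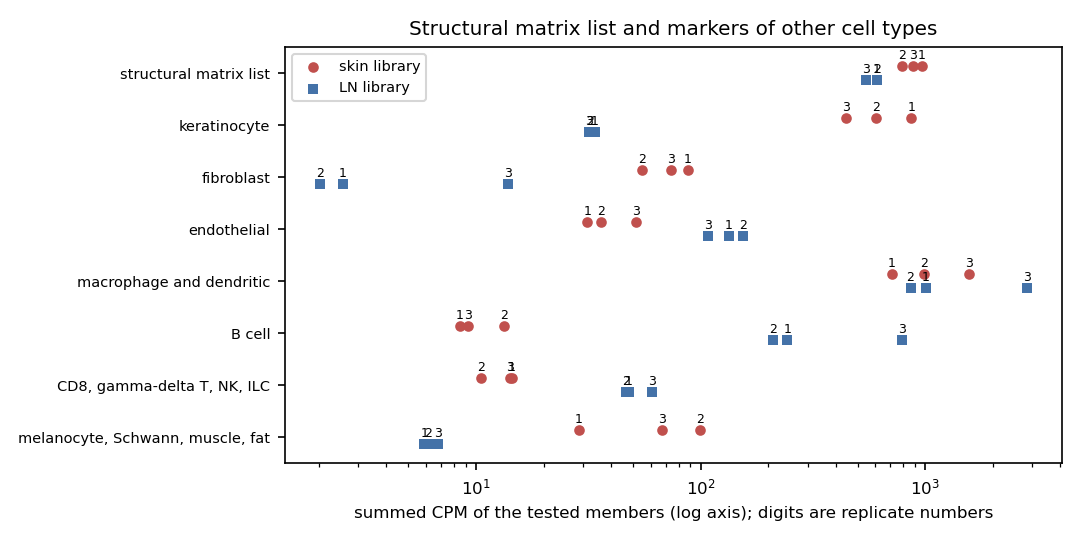
Summed CPM on a log axis of the structural matrix list and of 7 marker lists of other cells, with 1 red circle for each skin library and 1 blue square for each LN library, and replicate numbers above the points. Keratinocyte and fibroblast sums are higher in skin, B cell sums are higher in LN with replicate 3 at the top, and the structural matrix sums run from 543 CPM in LN to 963 CPM in skin.

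Among enzymes that process and crosslink collagen, 7 of 27 were higher and 1 was lower, a share on the higher side near the background of 28.8%. The 7 became 3 without LN replicate 1 and 4 without LN replicate 3, without skin replicate 1, without skin replicate 2 or without LN replicate 3 and skin replicate 2 together. They include the prolyl hydroxylase gene P4ha1 (1.31 ± 0.19), picked out after its values were seen. Crtap, a cofactor of prolyl hydroxylation, did not pass (0.36, 95% interval -0.06 to 0.78).

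Metalloproteinases that cut matrix and shed surface proteins were higher for 13 (31.7%) and lower for 7 (17.1%) of 41. The shares over all genes tested were 28.8% each way. By the 2-fold test 10 (24.4%) were higher and 3 (7.32%) lower, against 12.7% and 9.67%. The 10 became 5 without LN replicate 1 and 5 without LN replicate 2. Adam8, a sheddase of activated leukocytes, was read at 151, 119 and 131 CPM in skin and 6.68, 5.87 and 7.50 CPM in LN (4.32 ± 0.18, adjusted p = 3.28e-11). The gelatinase gene Mmp9 was higher at 62.7, 63.1 and 46.7 CPM against 5.18, 4.19 and 4.61 CPM (3.62 ± 0.41). Adam9 was higher by 3.17 ± 0.27 and the membrane-bound collagenase gene Mmp14 by 2.13 ± 0.48, while Adam17 did not pass (0.12, 95% interval -0.22 to 0.46). Dpp4, the surface peptidase CD26, was lower at 5.34, 10.3 and 9.42 CPM against 119, 112 and 119 CPM (-3.80 ± 0.33). Among serine proteases and their regulators 23 of 53 were higher and 5 lower. Furin, the convertase that matures transforming growth factor beta and metalloproteinases, was read at 165, 136 and 136 CPM in skin and 6.39, 5.39 and 8.35 CPM in LN (4.44 ± 0.24). The annexin genes Anxa1 and Anxa2, the latter a plasminogen receptor subunit, were higher by 4.53 ± 0.38 and 2.61 ± 0.17.

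Proteoglycans and their enzymes were higher for 20 (32.3%) and lower for 11 (17.7%) of 62. The shares over all genes tested were 28.8% each way. By the 2-fold test 16 were higher, and this count became 10 without LN replicate 1, 9 without LN replicate 2 and 10 by limma-voom. Sdc4, the heparan sulfate proteoglycan syndecan 4, was read at 535, 443 and 479 CPM in skin and 27.2, 27.1 and 22.8 CPM in LN (4.24 ± 0.15, adjusted p = 5.98e-12). Srgn, the granule proteoglycan serglycin, was higher at 3146, 2921 and 3751 CPM against 708, 722 and 631 CPM (2.25 ± 0.14). Of the enzymes, Chsy1, which extends chondroitin, was higher by 2.78 ± 0.25 and Hs6st1, which sulfates heparan, by 2.91 ± 0.41. Chst12 (-1.95 ± 0.29), Xylt2 (-1.58 ± 0.29) and Sgsh, a lysosomal sulfatase (-2.89 ± 0.36), were lower, and Chpf did not pass (0.25, 95% interval -0.15 to 0.66).

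Secreted growth factors were higher for 27 and lower for 7 of 70, the 7 becoming 4 under a filter of 50 counts in 3 libraries. Metrnl, a cytokine known from barrier tissues and from activated macrophages, was read at 118, 167 and 75.9 CPM in skin and 0.888, 0.793 and 1.41 CPM in LN (6.85 ± 0.36, adjusted p = 5.3e-10). Besides Areg, the epidermal growth factor family gave Hbegf, at 13.3, 9.86 and 13.2 CPM against 1.07, 2.19 and 0.941 CPM (3.11 ± 0.50). Fgl2, a secreted suppressor molecule of Tregs, was higher by 4.0 ± 0.30, with skin replicate 2 the lowest of its group at 687, 349 and 722 CPM. Igfbp4, which binds insulin-like growth factors, was lower at 8.79, 6.72 and 9.37 CPM against 227, 271 and 219 CPM (-4.85 ± 1.19, adjusted p = 0.00484), on the same side as the receptor genes Igf1r and Igf2r. Fgf13 was lower (log2 difference -3.22 ± 0.75).

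Cytoskeletal and lamina genes were higher for 48 and lower for 18 of 105, and 28 and 6 by the 2-fold test. Beside Lmna, the tubulin gene Tubb6 was read at 95.4, 82.8 and 86.0 CPM in skin and 1.17, 1.40 and 2.82 CPM in LN (5.60 ± 0.27). Vcl, which encodes vinculin and anchors actin at adhesions, was higher at 46.6, 27.9 and 42.8 CPM against 2.66, 3.04 and 4.93 CPM (3.46 ± 0.28), and Rnd1, a GTPase that loosens actin, by 4.49 ± 0.53. Evl, which extends actin filaments and aids lymphocyte migration, was lower at 8.89, 7.91 and 7.43 CPM against 272, 251 and 152 CPM (-4.80 ± 0.25). Actn1, an actin crosslinker, was lower at 3.31, 2.96 and 2.85 CPM against 65.8, 61.7 and 46.4 CPM (-4.25 ± 0.36). Myo6 was lower (log2 difference -2.57 ± 0.26). Rhoa did not pass the test, at 0.19 with a 95% interval of -0.02 to 0.40.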

How the data were processed

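RNA of sorted Tregs was made into SMART-Seq v4 libraries and read as 75 bp single-end reads, per the labels' protocols. Reads were aligned to mm9 with TopHat2 2.0.6 and compared with DESeq2, version not given, per the submitters' processing notes. The tool and annotation that gave the counts are not given in the sources used here. Reads shared by near-identical genes (Fth1, Serpina3g, Ctla2a, Ly6c1, Clec2i, Cd200r4) or by overlapping genes may have gone to either gene. The authors deposited raw counts per gene and library, as whole numbers. Their table of the skin and LN comparison was not used here.

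The tests were run on the deposited counts with edgeR 4.0.16 under R 4.3.3. Genes kept by filterByExpr over 5 groups were scaled by TMM (factors 0.903 to 1.26 in the 6 libraries). They were fitted in 1 robust quasi-likelihood model of all 15 libraries, Rora cKO and MC903-treated skin included, so that the groups share an estimate of the spread. Its common dispersion of 0.138 corresponds to a coefficient of variation of 37.2% between libraries of a group, beyond counting error. WT skin was set against LN, and p-values were adjusted by Benjamini-Hochberg over all 13578 genes. Of these, 373 had no read in LN and 180 had none in WT skin. Such genes passed the filter through other groups, which fixed their direction in advance. The 2-fold test is edgeR's glmTreat at a log2 threshold of 1. Intervals are 95% intervals of the quasi-likelihood fit. They are not adjusted over the genes tested, so an interval can leave out 0 for a gene that did not pass. The labels' protocols name no molecular identifiers, so the counts are taken as amplified reads and not as molecules. The steps were tested on simulated data.

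The comparison, its lists and the rule for named genes were chosen with earlier results of these data known. For each direction the rule takes the 12 called genes of largest difference (mean log2 CPM of 5 or more, groups not overlapping, unnamed models left out), and in each list up to 4 members in each direction past the 2-fold test (mean log2 CPM of 2 or more, groups not overlapping) with the 1 uncalled member of the narrowest interval. For marker lists it takes the 2 members of highest level. Foxp3, Il2ra, Ctla4, Cd4, Cd3e and Rora were followed. Other genes are said in the text to be picked out after their values were seen, or serve as markers of other cells. Not every gene that the rule takes is described, and a few are not reported here. Lists are described by counts and medians, with no set test. Promoters are the 250 bases before each start in a RefSeq table of GRCm38.p6. Motif shares are over genes with a promoter, and a gene counts if any of its starts has the letters.

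Alternatives were DESeq2 1.42.0, scaling by relative log expression, dropping the filter on low counts or raising it to 50 counts in 3 libraries, fitting the 6 libraries alone, blocking by replicate number, weighted limma-voom (limma 3.58.1) and leaving out each of the 6 libraries. A run without LN replicate 3 and skin replicate 2 was added after seeing the data.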

Additional observations from a re-analysis of the deposited data

How the results depend on the processing

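The counts of genes past each threshold stayed within 1.5 times of the reported ones under the 14 other settings, with 1 exception. The genes more than 2-fold lower in skin numbered 823 by DESeq2 in place of 1313, and 64.84% of the 2-fold calls were higher in skin by DESeq2 in place of 56.72%. The cause was not tested. Leaving out each library in turn gave 3257 to 3686 genes higher, 3376 to 3590 lower, 1331 to 1671 more than 2-fold higher and 1002 to 1263 more than 2-fold lower. Another scaling or filter moved the median of all genes by at most 0.046 on the log2 scale. Of the 255 named genes called by the plain test, 252 kept their call and direction in every setting, and the exceptions were Mcpt4, Cd8a and Fabp4, which mark other cells. Of the 42 named genes not called, 20 stayed uncalled in every setting. Of 2744 recounts of list members, 267 differed from the reported count by more than 1.5 times. With the replicate number as a block, 3366 genes were higher, 3530 lower, 1581 more than 2-fold higher and 1352 more than 2-fold lower. Whether same-numbered skin and LN libraries came from the same animals is not given in the sample titles. Their deviations from the group mean correlated at 0.0559, 0.0172 and 0.127. Skin replicates 1 and 3 correlated best with the LN library of the same number, and skin replicate 2 with LN replicate 1 (0.0553). With 3 libraries per group, whose deviations sum to 0, these values cannot decide whether the libraries were paired. Depth limits the low genes: a structural matrix gene with no read in LN has only a lower bound to its fold.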
